A study of Coturnix japonica with 4 samples.

Results

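Cadherins, protocadherins, their large relatives of the FAT, Dachsous, CELSR and calsyntenin families, and the catenins were followed in embryonic skin of Japanese quail (Coturnix japonica). The members were the genes of the expression table whose symbols carry these family names, with CDH5 and CDH19 left out, and they numbered 50 of 12383 genes. The study compared skin cut from the black stripes with skin cut from the yellow stripes of untreated embryos at embryonic day 7. It had 2 libraries per stripe, each pooled from 4 embryos. The strain was not given in the sources used here. For each stripe the deposited table holds 1 RPKM value, which is a read number divided by transcript length and by the mapped reads, so no replicate spread can be given and no value below carries an SD. The depth behind the values is unknown.

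Cadherins are calcium-dependent adhesion proteins whose extracellular repeats bind those of neighbouring cells. The tails of classical cadherins bind p120-catenin and beta-catenin, and beta-catenin binds alpha-catenin, which links the junction to actin. Beta-catenin also carries Wnt signals to the nucleus. In embryonic skin these proteins hold the epidermis together and take part in the gathering of dermal cells under feather buds. FAT, Dachsous and CELSR proteins are giant cadherins known for planar cell polarity, the alignment of cells within a sheet, and protocadherins are weaker adhesion proteins best known from neurons. Roles named below come mostly from work in mammals and chick. The gene names deposited with the IDs held the word cadherin, catenin or calsyntenin for all 50 members, and 41 were annotated there to the plasma membrane.

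The stripe names need care, since pigment genes run against them. TYRP1, an enzyme of black pigment synthesis, had 2.71 RPKM in black-labelled skin, against 68.2 RPKM in yellow-labelled skin. The summed level of 9 melanocyte markers was 218 RPKM in black-labelled and 608 RPKM in yellow-labelled skin. Of these markers, 8 were higher in yellow-labelled skin and 1, KIT, in black-labelled skin. Both kinds of skin are therefore called here by their labels, black-labelled and yellow-labelled skin. Keratinocyte markers (7 measured, summed 272 RPKM in black-labelled and 283 RPKM in yellow-labelled skin) and dermal fibroblast markers (8 measured, 2168 RPKM in black-labelled and 2089 RPKM in yellow-labelled skin) were present in both. In such tissue RNA, fewer cells of a type and less RNA per cell cannot be told apart. CDH1, CDH3, CDH6, CDH7, CDH9, DCHS2 and the clustered protocadherins were not analysed here.

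CLSTN2 was the measured member with the largest difference between the stripes, followed by CTNNAL1, CDH20 and CTNNA2, and most other members had close levels. A mean of at least 1 RPKM, the limit for calling a gene measured, was reached by 37 of the 50 members. Of these, 19 were higher in black-labelled and 18 in yellow-labelled skin. Their median log2 ratio of black-labelled over yellow-labelled RPKM was 0.01, against -0.00 for all 10061 measured genes, and 24 of the 37 lay within 1.1-fold, a share of 64.9% where that of all measured genes was 69.5%. The members' median absolute log2 ratio was 0.11, against 0.08 over all measured genes. A difference of at least 1.5-fold was shown by 1 member, CLSTN2, in the black-labelled direction, where the share of all measured genes was 1.78%. In the yellow-labelled direction it was shown by 0 members, where that share was 1.08%. In either direction the share was 2.70% of measured members, close to the 2.86% of all measured genes. At the looser fold limit tried below, members differed more from all genes. There, 81.1% of measured members lay within the limit, against 90.8% of all measured genes, as a description of these values. In the authors' deposited table, 1 of 44 members with a p-value under 1 had a q-value under 0.05, against 0.331% of all such genes. An unadjusted p under 0.05 was listed in the authors' deposited table for 4 members, 2 higher in black-labelled skin (2.07% of all genes with a p-value under 1) and 2 in yellow-labelled skin (1.39%). The 4 were 9.09% of the 44 members with a p-value under 1, against 3.46% of all such genes. With 4 genes this share is a description only, and the way the authors used the libraries of each stripe for these p-values was not given in the sources used here.

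**Figure D1:**
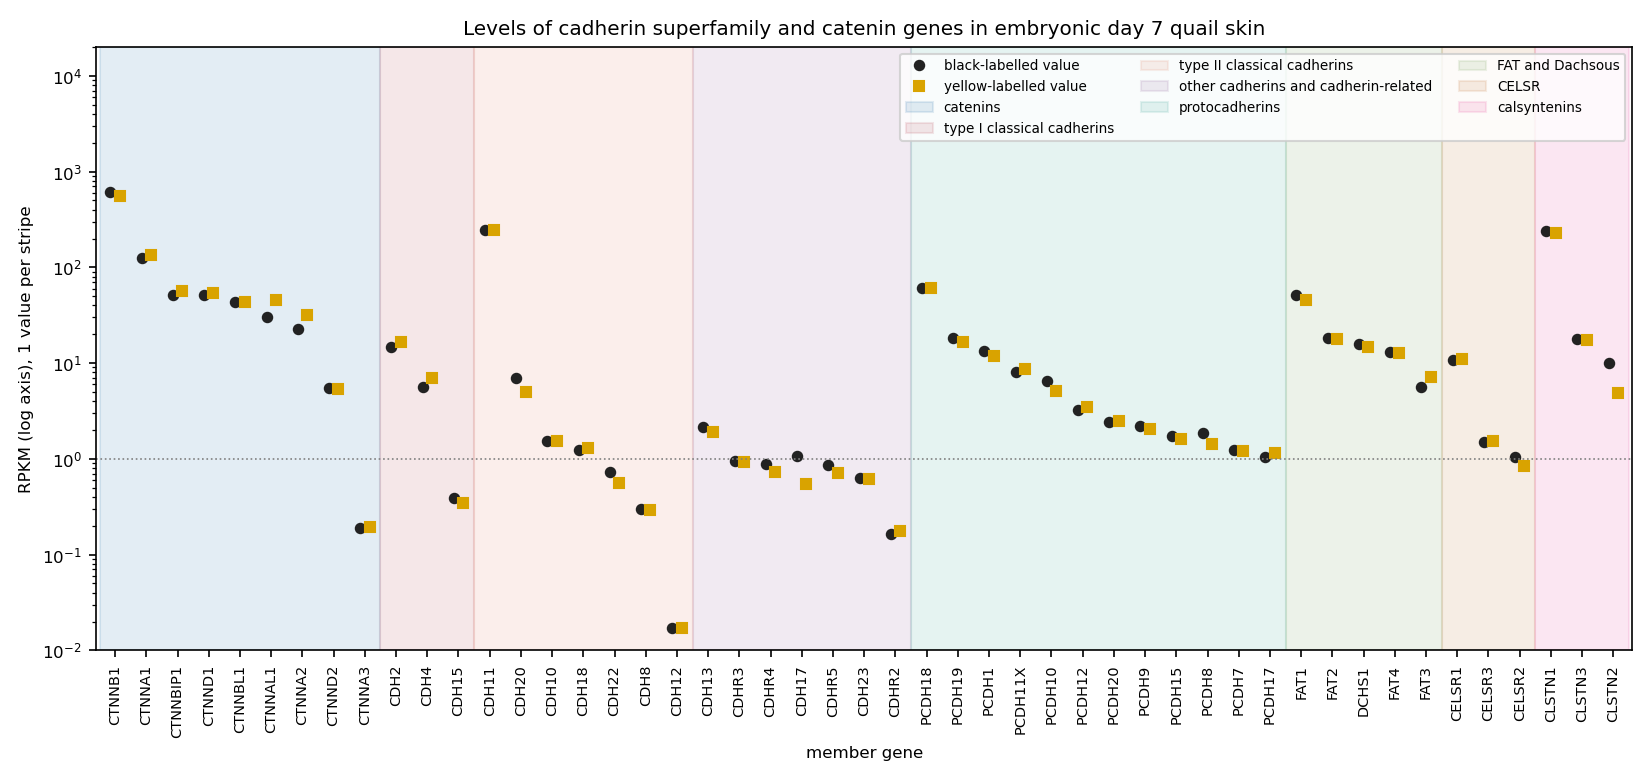
RPKM of the 49 members listed above 0, on a log axis, as 1 black circle for the black-labelled and 1 yellow square for the yellow-labelled value, with shading by family and a dotted line at 1 RPKM. CTNNB1, CDH11, CLSTN1 and CTNNA1 stand highest, and for most genes the circle and the square nearly coincide.

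The catenins held the largest part of the family's RNA. CTNNB1, beta-catenin, had 614 RPKM in black-labelled and 561 RPKM in yellow-labelled skin, the highest level of all members and above 99.2% of all genes. CTNNA1, the widely expressed alpha-catenin, had 126 RPKM in black-labelled and 135 RPKM in yellow-labelled skin. CTNND1, p120-catenin, which keeps cadherins at the cell surface, had 51.9 RPKM in black-labelled and 54.4 RPKM in yellow-labelled skin. None of these differed by more than 1.1-fold. The summed alpha-catenins came to 24.2% of the CTNNB1 level in black-labelled and 29.8% in yellow-labelled skin. The summed CTNND1 and CTNND2 came to 9.34% of it in black-labelled and 10.7% of it in yellow-labelled skin. CTNND2, a relative of p120-catenin best known from neurons, had 5.46 RPKM in black-labelled and 5.43 RPKM in yellow-labelled skin, and CTNNA3, the alpha-catenin of heart and testis, 0.19 RPKM in black-labelled and 0.20 RPKM in yellow-labelled skin.

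CTNNA2, the alpha-catenin typical of neurons, was lower in black-labelled skin, with 22.7 RPKM, against 32.2 RPKM in yellow-labelled skin. The log2 ratio was -0.50 (1.42-fold), with p = 0.0346 and q = 1 in the authors' deposited table. It made up 15.3% of the summed alpha-catenin level in black-labelled and 19.2% in yellow-labelled skin. CTNNAL1, alpha-catulin, an alpha-catenin relative, had 30.4 RPKM in black-labelled and 45.2 RPKM in yellow-labelled skin. Its log2 ratio was -0.57 (1.48-fold), with p = 0.0054 and q = 0.445 in the authors' deposited table. Both genes lay under 1.5-fold and missed the q-value threshold. The marker lists were chosen with earlier results of these data known. Of all genes with a p-value under 1, 1.39% had p under 0.05 and were lower in black-labelled skin. Of the 9 melanocyte markers, 6 had p under 0.05 in the authors' deposited table, all lower in black-labelled skin. Among these 6, OCA2 had 0.53 RPKM in black-labelled and 1.48 RPKM in yellow-labelled skin. OCA2 reached the mean of a measured gene only through its yellow-labelled value. Of 5 measured smooth muscle and pericyte markers, 2 had p under 0.05 there (ACTA2 and MYH11), both lower in black-labelled skin. The 5 summed to 56.5 RPKM in black-labelled and 79.6 RPKM in yellow-labelled skin. The 3 measured Schwann cell markers summed to 39.3 RPKM in black-labelled and 46.4 RPKM in yellow-labelled skin. Neuron markers were mixed, with 3 of 5 measured genes higher in black-labelled and 2 in yellow-labelled skin, and summed levels of 21.6 RPKM in black-labelled and 20.1 RPKM in yellow-labelled skin. The part of these cell types in the CTNNA2 and CTNNAL1 values was not tested.

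The name rule also takes CTNNBIP1, an inhibitor that keeps beta-catenin from its TCF partners, and CTNNBL1, a splicing factor named for its beta-catenin-like repeats. CTNNBIP1 had 51.9 RPKM in black-labelled and 56.6 RPKM in yellow-labelled skin. CTNNBL1 had 43.0 RPKM in black-labelled and 43.6 RPKM in yellow-labelled skin. The p-values of CTNNBIP1 (0.531) and CTNNBL1 (0.937) in the authors' deposited table were far from the threshold.

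Among the 10 classical cadherins analysed here, CDH11 dominated. CDH1, CDH3, CDH6, CDH7 and CDH9 were not analysed and are not part of the sums below. CDH11, also called OB-cadherin and known from mesenchymal cells, had 246 RPKM in black-labelled and 248 RPKM in yellow-labelled skin, a log2 ratio of -0.01. It made up 88.6% of the summed RPKM of the 10 classical cadherins in black-labelled and 88.4% in yellow-labelled skin. With CDH5 and CDH19 added, type II cadherins that the members leave out, a sum chosen after the data were seen, it made up 77.5% in black-labelled and 78.2% in yellow-labelled skin. CDH2, N-cadherin, known from neural tissue, muscle and condensing mesenchyme, had 14.8 RPKM in black-labelled and 16.7 RPKM in yellow-labelled skin. CDH4, R-cadherin, first described in the retina, had 5.65 RPKM in black-labelled and 6.97 RPKM in yellow-labelled skin. Both were lower in black-labelled skin, by 1.12-fold and 1.23-fold, with p = 0.437 for CDH2 and p = 0.237 for CDH4 in the authors' deposited table. CDH15, the M-cadherin of muscle precursors, was at 0.39 RPKM in black-labelled and 0.34 RPKM in yellow-labelled skin.

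CDH20, a type II cadherin of neural tissue, had the largest ratio of the classical cadherins analysed here. It had 7.02 RPKM in black-labelled and 4.95 RPKM in yellow-labelled skin, a log2 ratio of 0.50 (1.42-fold), with p = 0.0514 and q = 1 in the authors' deposited table. It therefore missed both the fold limit and the p-value threshold. The related CDH10 had 1.54 RPKM in black-labelled and 1.55 RPKM in yellow-labelled skin, and CDH18 had 1.23 RPKM in black-labelled and 1.30 RPKM in yellow-labelled skin. CDH22, CDH8 and CDH12 were all under 1 RPKM in both values. In Coturnix japonica 2.1, the RefSeq assembly used here for names and gene order, CDH18, CDH12 and CDH10 follow each other as protein-coding genes, as do CDH11 and CDH8. The neighbours CDH11 and CDH8 were far apart in level, CDH8 having 0.30 RPKM in black-labelled and 0.29 RPKM in yellow-labelled skin.

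**Figure D2:**
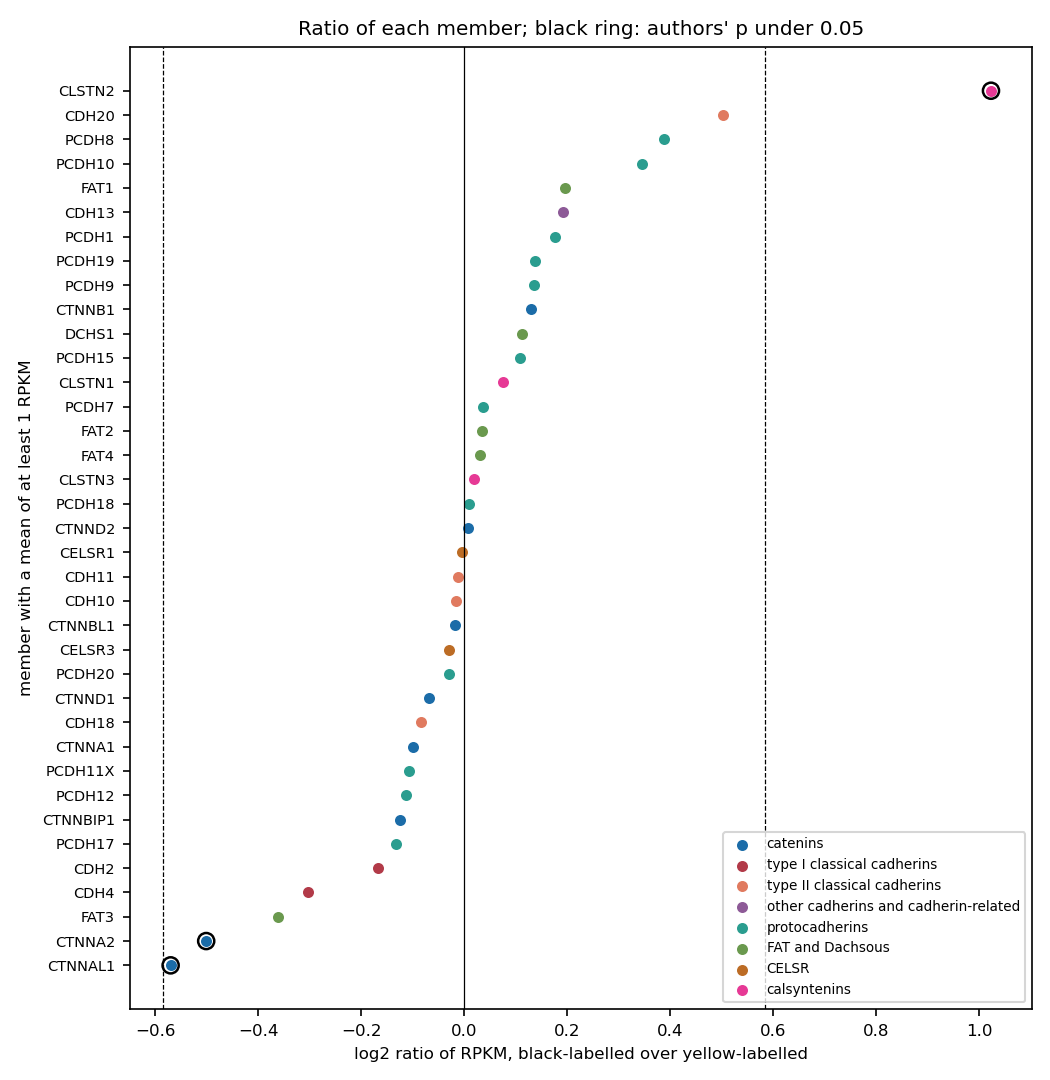
Log2 ratio of RPKM, black-labelled over yellow-labelled, for the 37 measured members, coloured by family, with dashed lines at 1.5-fold and black rings on genes with p under 0.05 in the authors' deposited table. CLSTN2 is the 1 gene beyond a dashed line, and CTNNAL1 and CTNNA2 are at the lower end.

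Of the 8 cadherins and cadherin-related genes outside the classical types, 1 was measured. This was CDH13, T-cadherin, which is held in the membrane by a lipid anchor and lacks a catenin-binding tail, with 2.17 RPKM in black-labelled and 1.90 RPKM in yellow-labelled skin. CDH17, an intestinal cadherin named after its values were seen, had 1.08 RPKM in black-labelled and 0.54 RPKM in yellow-labelled skin. Its ratio was 1.99-fold, with p = 0.0222 and q = 0.96 in the authors' deposited table, and its mean of 0.81 RPKM lies under the limit for a measured gene. CDH23, the tip-link cadherin of hair cells, had 0.63 RPKM in black-labelled and 0.61 RPKM in yellow-labelled skin, and its binding partner PCDH15 1.73 RPKM in black-labelled and 1.61 RPKM in yellow-labelled skin. CDHR3, CDHR4, CDHR5 and CDHR2 stayed under 1 RPKM in both values, and CDHR1, a photoreceptor gene, was listed at 0 in both.

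All 12 protocadherins were measured, and they ranged over more than an order of magnitude in level. Their largest difference between the stripes was 1.31-fold, that of PCDH8. PCDH18 led with 61.2 RPKM in black-labelled and 60.8 RPKM in yellow-labelled skin, and made up 50.5% of the summed protocadherin level in black-labelled and 52.2% in yellow-labelled skin. PCDH19, a partner of N-cadherin in neural tissue, had 18.5 RPKM in black-labelled and 16.8 RPKM in yellow-labelled skin, and PCDH1, an epithelial protocadherin, 13.3 RPKM in black-labelled and 11.7 RPKM in yellow-labelled skin. Of the 12 genes, 8 were higher in black-labelled and 4 in yellow-labelled skin, with a median log2 ratio of 0.07. The highest ratios were those of PCDH8, known from paraxial mesoderm, with 1.85 RPKM in black-labelled and 1.42 RPKM in yellow-labelled skin, and of PCDH10, with 6.52 RPKM in black-labelled and 5.13 RPKM in yellow-labelled skin. Neither passed p under 0.05 in the authors' deposited table, which lists p = 0.265 for PCDH8 and p = 0.156 for PCDH10. PCDH10 and PCDH18 are direct neighbours in Coturnix japonica 2.1, with log2 ratios of 0.35 and 0.01. PCDH12, a protocadherin of blood vessel walls, had 3.22 RPKM in black-labelled and 3.48 RPKM in yellow-labelled skin. The 5 measured endothelial markers summed to 83.6 RPKM in black-labelled and 86.4 RPKM in yellow-labelled skin. This sum takes in CDH5, left out of the members, with 38.8 RPKM in black-labelled and 35.8 RPKM in yellow-labelled skin. CDH5 was the 1 marker of the 5 that was higher in black-labelled skin, and the other 4 were higher in yellow-labelled skin. PCDH11X, PCDH20, PCDH9, PCDH7 and PCDH17 were each within 1.1-fold between the stripes.

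Among the giant cadherins, FAT1 was the most abundant, with 51.9 RPKM in black-labelled and 45.3 RPKM in yellow-labelled skin. It made up 58.5% of the summed FAT level in black-labelled and 54.6% in yellow-labelled skin. FAT2, an epidermal relative, had 18.3 RPKM in black-labelled and 17.9 RPKM in yellow-labelled skin. FAT4 and DCHS1, a receptor and ligand pair of planar polarity in mice, had close values too, with 12.9 RPKM in black-labelled and 12.6 RPKM in yellow-labelled skin for FAT4, and 15.8 RPKM in black-labelled and 14.6 RPKM in yellow-labelled skin for DCHS1. FAT3, known from neurons, was the member of this group with the largest difference, at 5.60 RPKM in black-labelled and 7.19 RPKM in yellow-labelled skin. Its log2 ratio was -0.36, with p = 0.0768 in the authors' deposited table, short of the threshold. CELSR1, a polarity receptor of epidermis, had 10.9 RPKM in both values. CELSR3 had 1.5 RPKM in black-labelled and 1.53 RPKM in yellow-labelled skin, and CELSR2 1.06 RPKM in black-labelled and 0.84 RPKM in yellow-labelled skin.

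The calsyntenins, membrane proteins with cadherin repeats that bind kinesin or act at synapses, held the 1 member past both the fold limit and the q-value threshold. CLSTN2 had 9.95 RPKM in black-labelled and 4.90 RPKM in yellow-labelled skin. The log2 ratio was 1.02 (2.03-fold). The authors' deposited table lists p = 5e-05 and q = 0.0177 for CLSTN2 and holds no lower value of either. This lowest p-value is shared by 30 genes, so it does not rank CLSTN2 above the others. The other calsyntenins did not share this difference in size. CLSTN1 had 238 RPKM in black-labelled and 226 RPKM in yellow-labelled skin, and CLSTN3 17.9 RPKM in black-labelled and 17.6 RPKM in yellow-labelled skin. CLSTN2 thus made up 3.74% of the summed calsyntenin level in black-labelled and 1.97% in yellow-labelled skin. CLSTN1 and CTNNBIP1 are direct neighbours in Coturnix japonica 2.1, and their log2 ratios were 0.08 and -0.13.

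Some genes of body position and some markers of other tissues also had higher values in black-labelled skin. These lists were chosen with earlier results of these data known, so their counts are descriptions only. All 7 measured limb and body position genes had p under 0.05 in the authors' deposited table in this direction. That share was 2.07% over all genes with a p-value under 1. Of the 7 genes, 1, PITX1, had q under 0.05, and the 7 summed to 66.0 RPKM in black-labelled and 31.3 RPKM in yellow-labelled skin. The 3 measured skeletal muscle markers also had p under 0.05 there in this direction, and 0 had q under 0.05. They summed to 32.3 RPKM in black-labelled and 16.4 RPKM in yellow-labelled skin. Most of this sum was TNNC1, with 25.1 RPKM in black-labelled and 13.0 RPKM in yellow-labelled skin. The 4 measured cartilage and bone markers summed to 91.0 RPKM in black-labelled and 62.7 RPKM in yellow-labelled skin. Of them, 1 had p under 0.05 in the authors' deposited table, COL2A1. It had 64.6 RPKM in black-labelled and 41.6 RPKM in yellow-labelled skin. The muscle regulators MYOD1 (0.14 RPKM in black-labelled and 0.03 RPKM in yellow-labelled skin) and MYOG (0.06 RPKM in black-labelled and 0.03 RPKM in yellow-labelled skin) were near 0 in both. TUBB3, a neuronal tubulin, had 10.4 RPKM in black-labelled and 5.99 RPKM in yellow-labelled skin, while GAP43, a growth cone protein, had 2.79 RPKM in black-labelled and 4.99 RPKM in yellow-labelled skin. Of the position genes, HAND2 had 9.64 RPKM in black-labelled and 0.18 RPKM in yellow-labelled skin. PITX1 had 5.39 RPKM in black-labelled and 0.82 RPKM in yellow-labelled skin. HAND2 and PITX1 reached the mean of a measured gene only through their black-labelled values, and the counts and sum above include them. TBX4 and TBX5, not measured, were under 1 RPKM in both. The part of body position or of these tissues in the CLSTN2 value was not tested.

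**Figure D3:**
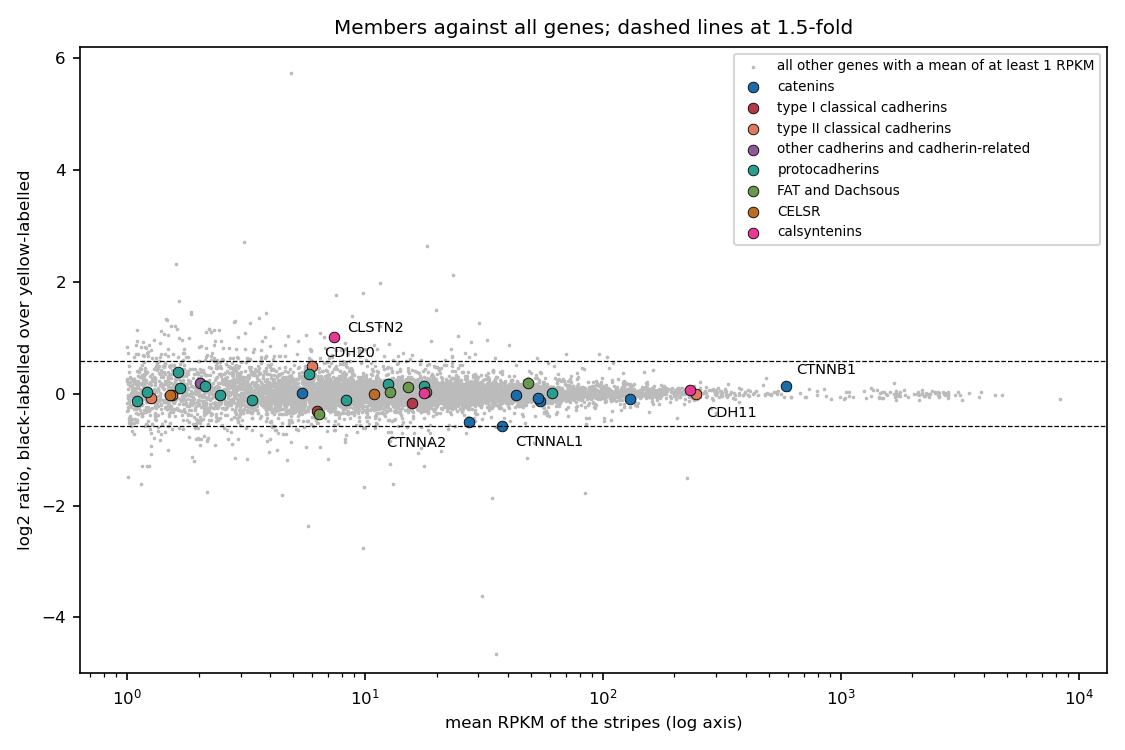
Log2 ratio of RPKM, black-labelled over yellow-labelled, against the mean RPKM of the stripes on a log axis, for the 37 measured members (coloured by family) and all other measured genes (grey), with dashed lines at 1.5-fold. The members lie within the grey cloud across its range of levels, and CLSTN2 is the member beyond a dashed line.

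Differences over all genes were smaller at higher levels, while those over the members did not fall steadily with level. Between 1 and 5 RPKM, the median absolute log2 ratio was 0.11 over 11 members and 0.18 over 1894 genes in all. Between 5 and 20 RPKM it was 0.14 over 15 members and 0.08 over 4304 genes. At 20 RPKM and above it was 0.10 over 11 members and 0.06 over 3863 genes. Low members were thus closer between the stripes than low genes in general. Members in each of the higher ranges were farther apart than all genes of the same range, as a description of these values.

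Of 67 measured genes listed as acting with cadherins, 2 (2.99%) had p under 0.05 in the authors' deposited table, close to the 3.46% of all genes with a p-value under 1, and 0 had q under 0.05. Of 14 measured junction partners, 0 passed either threshold, and their median log2 ratio was -0.06. The most abundant were LIMA1, an actin-binding partner of alpha-catenin, with 106 RPKM in black-labelled and 99.1 RPKM in yellow-labelled skin, and CTTN, cortactin, with 70.3 RPKM in black-labelled and 68.9 RPKM in yellow-labelled skin. Of 5 measured desmosome genes, which build the other cadherin-based junction of epidermis, 0 passed either threshold, and their median was -0.06. DSP, desmoplakin, had 98.5 RPKM in black-labelled and 108 RPKM in yellow-labelled skin, and DSG2, a desmosomal cadherin, 24.1 RPKM in black-labelled and 22.8 RPKM in yellow-labelled skin. Of 9 measured genes of cadherin cleavage and trafficking, 0 passed either threshold, and the median was -0.03. ADAM10, a protease that sheds cadherin ectodomains, had 33.2 RPKM in black-labelled and 33.9 RPKM in yellow-labelled skin. RAB11A, a recycling GTPase and the most abundant of the list, had 61.9 RPKM in black-labelled and 59.9 RPKM in yellow-labelled skin, and NCSTN, a gamma-secretase subunit and the next, 37.0 RPKM in black-labelled and 37.4 RPKM in yellow-labelled skin.

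Of 11 measured transcription factors and regulators of the epithelial to mesenchymal transition, in which cadherin genes are repressed or exchanged, 0 had q under 0.05 and 1 had p under 0.05 in the authors' deposited table. The share over all genes with a p-value under 1 was 3.46%, and a count of 1 gene is a description only. FOXC2, a forkhead factor of mesenchyme, had 2.52 RPKM in black-labelled and 0.79 RPKM in yellow-labelled skin. Its ratio was 3.17-fold, with p = 0.00025 and q = 0.0634 in the authors' deposited table. It reached the mean of a measured gene only through its black-labelled value. The abundant repressor SNAI2 had 215 RPKM in black-labelled and 201 RPKM in yellow-labelled skin, and TWIST1 171 RPKM in black-labelled and 167 RPKM in yellow-labelled skin. The list's median log2 ratio was 0.07. Of 28 measured genes of planar polarity and the Hippo pathway, which acts downstream of FAT and Dachsous in flies, 0 had q under 0.05 and 1 had p under 0.05 in the authors' deposited table, a share near the 3.46% of all genes with a p-value under 1. LATS2, a Hippo kinase, had 4.77 RPKM in black-labelled and 6.68 RPKM in yellow-labelled skin, and p = 0.0382 in the authors' deposited table. YAP1, the effector that these kinases restrain, had 111 RPKM in black-labelled and 108 RPKM in yellow-labelled skin. FJX1, whose fly relative modifies FAT and Dachsous, had 91.1 RPKM in black-labelled and 96.5 RPKM in yellow-labelled skin. The list's median was -0.01.

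**Figure D4:**
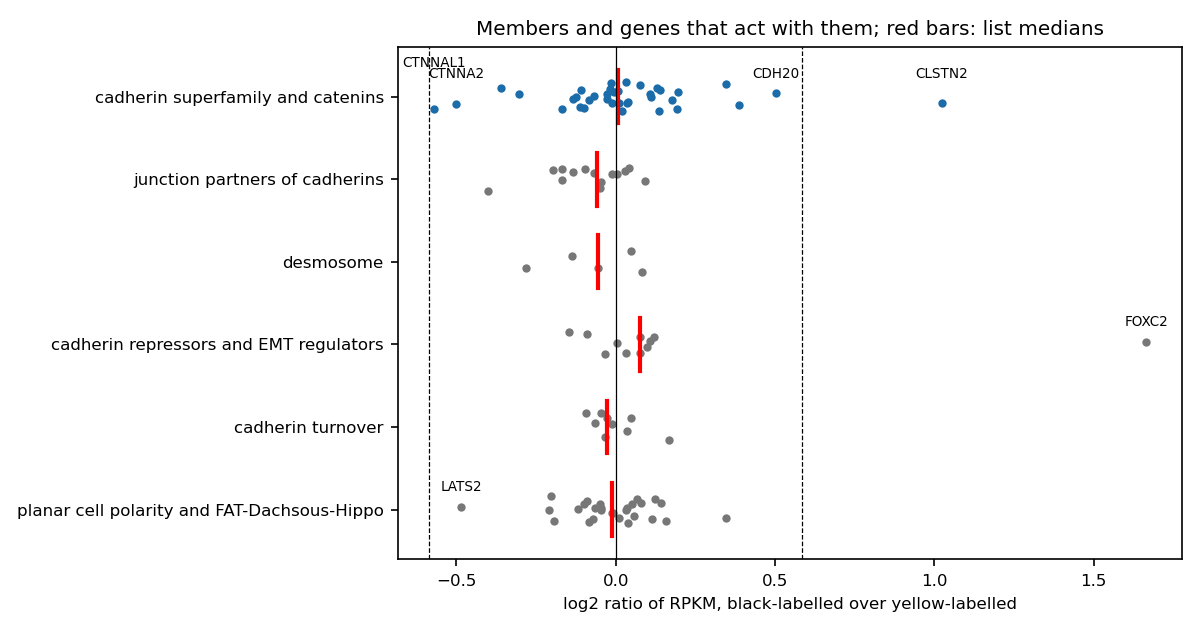
Log2 ratio of RPKM, black-labelled over yellow-labelled, for the measured members and for measured genes of 5 lists that act with them, 1 point per gene, with red bars at the medians and dashed lines at 1.5-fold. CLSTN2 and FOXC2 lie beyond the dashed lines, and the medians lie between -0.06 and 0.07.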

How the data were processed

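The members and lists were chosen with earlier results of these data known. RPKM values were computed by the authors, 1 per stripe, per the file headers, and the submitters' processing notes name TopHat2 2.1.1 and Cufflinks 2.2. Genome build, annotation, strand setting and pooling step were not given in the sources used here. Per the file headers, the authors' p-values and q-values come from a QIAGEN export. Their deposited log2 ratios were within 0.01 of black-labelled over yellow-labelled RPKM for each of 10503 genes at or above 0.5 RPKM in both stripes. Of 12419 rows, 11 with IDs turned into dates and 25 with repeated IDs were left out. A further deposited column repeats the yellow-labelled RPKM for genes with p under 0.05, holds other numbers (-1) elsewhere and was not used. Log2 ratios were computed without a pseudocount (Python 3.11.15, pandas 2.3.3, numpy 2.4.6, checked on simulated data). Named genes were members past 1.5-fold or the authors' p or q of 0.05, the 3 most abundant of each family, and listed partners past p or most abundant (2 per list). Further members and markers were chosen after their values were seen. All 50 members matched RefSeq symbols. No test was run on 1 value per stripe.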

Additional observations from a re-analysis of the deposited data

How the results depend on the processing

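No paired analysis was possible because the table holds 1 value per stripe, and for the same reason no replicate could be left out. CLSTN2 remained past the fold under every floor, pseudocount and scaling tried. At a looser fold limit, 4 members counted as higher in black-labelled and 3 in yellow-labelled skin. Of the measured members, 81.1% lay within this limit, against 90.8% of all measured genes. A larger share of members than of all genes was therefore past it. With a floor of 0.1 RPKM or no floor, 2 members were higher in black-labelled skin, since CDH17 then counts. The share of all genes past the fold, 2.86%, became 9.23% at the looser fold limit, 0.785% at 2-fold, 6.5% at a floor of 0.1 RPKM, 1.35% at one of 5 RPKM, 8.63% with no floor and 1.55% with a pseudocount of 1. The members' median log2 ratio was 0.033 with a floor of 0.1 RPKM, 0.032 with none and 0.0006 with equal upper quartiles. Members past the authors' threshold numbered 1 at q under 0.05 or 0.10, also when p-values were adjusted again over measured genes, and 4 at p under 0.05. Adding CDH5 and CDH19, chosen after the data were seen, altered none of these counts. No measured member changed sign under the 2 pseudocounts or the 2 scalings.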

Other observations

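CDH5, the endothelial cadherin that was left out by name, had 38.8 RPKM in black-labelled and 35.8 RPKM in yellow-labelled skin, and CDH19, known from Schwann cell precursors, 0.93 RPKM in black-labelled and 0.83 RPKM in yellow-labelled skin. CPED1, which the deposited names call cadherin-like, had 19.8 RPKM in black-labelled and 17.1 RPKM in yellow-labelled skin. The junctional partner of CDH5 listed as KIAA1462 had 42.7 RPKM in black-labelled and 48.9 RPKM in yellow-labelled skin.

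Some members share their place in the genome with another gene, and strand use in counting was not given in the sources used here. In Coturnix japonica 2.1, LRRTM2 overlaps CTNNA1, LRRTM1 overlaps CTNNA2 and LRRTM3 overlaps CTNNA3. LRRTM2, a synaptic adhesion gene, had 8.25 RPKM in black-labelled and 5.87 RPKM in yellow-labelled skin, with p = 0.558 in the authors' deposited table. LRRTM1 had 0.21 RPKM in black-labelled and 0.13 RPKM in yellow-labelled skin, far under CTNNA2 with 22.7 RPKM in black-labelled and 32.2 RPKM in yellow-labelled skin. ULK4, which overlaps CTNNB1, had 4.52 RPKM in black-labelled and 4.47 RPKM in yellow-labelled skin.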
